A study of Rattus norvegicus with 59 samples.

Results

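Tpp1, Prcp and Anpep are 3 rat genes for enzymes that take short pieces or single residues off the ends of peptides. They were taken by gene name, chosen with earlier results of these data known, from a table of lung FPKM, the number of sequenced fragments scaled by transcript length and by the size of the library. They made up 3 of the 2887 complete entries of that table, and all 3 passed the filter for testing. The filter asked for 4 or more libraries at or above 1 FPKM and left 1278 entries. Of the entries with a RefSeq name, 99.3% were on chromosome 1, so ranks and shares below are mostly among genes of that chromosome. All 3 genes were higher in lungs of silica-exposed rats than in lungs of air-exposed rats at every time examined, by 1.22- to 1.73-fold.

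Tpp1 encodes tripeptidyl peptidase 1, a serine peptidase of the lysosome that cuts tripeptides from the free amino end of proteins. Its loss in humans causes a neuronal ceroid lipofuscinosis, a storage disease of neurons. Prcp encodes prolylcarboxypeptidase, also known as angiotensinase C, a lysosomal serine carboxypeptidase that removes a residue following proline. Its known substrates include angiotensin II and angiotensin III, and on endothelial cells it activates plasma prekallikrein. Anpep encodes aminopeptidase N, the surface antigen CD13, a zinc enzyme anchored in the outer membrane that takes neutral residues from the amino end of peptides and shortens angiotensin III. It is found on monocytes, macrophages and neutrophils and on the brush border of absorptive epithelia. In lung, lysosomes are abundant in alveolar macrophages, which take up inhaled particles, and in alveolar type 2 cells, whose lamellar bodies are related to lysosomes.

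The libraries came from male Fischer 344 rats (F344/DuCrl), bought at an age of 3 months, with 1 library per rat made from total RNA of a piece of lung. Silica rats breathed crystalline silica, a mineral dust whose inhalation leads to silicosis, at 15 mg/m3 in a whole-body chamber, 6 h a day on 5 days, and air rats were kept in the same way with air alone. Lungs were taken at 6 times after the exposure, at 1, 3 and 6 months and at 9, 12 and 18 months, so that rats of a later time were also older. Each group held 5 rats, except the 9-month air group with 4, giving 30 silica and 29 air libraries. The labels state no genetic change and no other agent in any group.

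The stretch just before the start of each gene is given here because all 3 genes were called higher in silica lungs, so that a reader can compare the sequences. Each is the 250 bases before the transcription start in the RefSeq annotation of assembly GRCr8, written in the gene's own direction. Tpp1 is on the minus strand at chr1:169515940-169516189, Prcp on the plus strand at chr1:156343644-156343893 and Anpep on the minus strand at chr1:143195102-143195351. Capitals mark matches to CATGTGA or its reverse complement, a form of the site read by the MiT/TFE factors that control lysosomal genes.
Tpp1: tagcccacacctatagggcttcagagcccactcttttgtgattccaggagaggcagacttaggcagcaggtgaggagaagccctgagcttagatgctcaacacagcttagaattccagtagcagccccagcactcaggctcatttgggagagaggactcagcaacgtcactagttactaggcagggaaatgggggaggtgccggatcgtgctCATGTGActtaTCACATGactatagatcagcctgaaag
Prcp: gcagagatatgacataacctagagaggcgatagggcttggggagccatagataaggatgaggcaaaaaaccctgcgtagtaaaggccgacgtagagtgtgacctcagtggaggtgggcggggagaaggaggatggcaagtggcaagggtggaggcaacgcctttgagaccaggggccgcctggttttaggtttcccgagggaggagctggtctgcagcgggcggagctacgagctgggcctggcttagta
Anpep: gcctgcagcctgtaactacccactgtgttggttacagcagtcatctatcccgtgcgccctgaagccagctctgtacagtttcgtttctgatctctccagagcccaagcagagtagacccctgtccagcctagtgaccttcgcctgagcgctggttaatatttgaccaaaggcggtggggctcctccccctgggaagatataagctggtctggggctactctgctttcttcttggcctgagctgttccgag
The search covered both strands for CATGTGA, for CACGTG, the E-box at the core of the CLEAR element of lysosomal genes, for TGANTCA, the AP-1 site, and for GAGGAA, the core of the site of the myeloid factor PU.1. Tpp1 held CATGTGA on both strands, at 38 and 27 bases before the start, and the matches did not overlap. None of these letters stood in the windows of Prcp and Anpep, and Tpp1 held none of the other motifs. Among 33469 rat promoters of the same length, 3.36% held CATGTGA, 5.59% CACGTG, 6.34% TGANTCA and 23.3% GAGGAA. In 102 promoters of listed lysosomal genes the shares were 15.7%, 22.5%, 4.9% and 24.5% in that order. CATGTGA was added to the search after the Tpp1 sequence had been seen, and a match is a description of letters, not of a bound site. The base composition of the windows was close, with 52.0% G and C for Tpp1, 58.4% for Prcp and 55.6% for Anpep. No other gene overlapped any of the 3 in the RefSeq table, and Anpep had 4 RefSeq transcripts against 1 each for Tpp1 and Prcp.

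FPKM hide the depth of a library, but the steps between low values gave a relative depth of 0.432 to 2.262 times the typical library. Every library detected all 3 genes, the lowest value being 6.34 FPKM for Prcp. One silica library had cell marker levels like those of air rats. Silica replicate 3 at 12 months had the lowest summed macrophage marker level of the silica libraries, 85.5 FPKM, the lowest level of the neutrophil marker Cd177, 12.7 FPKM, and the highest summed endothelial level, 115 FPKM. Each of these values fell in the range of the air libraries, and limma gave the library the lowest weight of all 59, 0.163. Results at 12 months are therefore given with and without it. Silica replicate 5 of 3 months had the next lowest weight, 0.489, and the highest summed heart and muscle level of all libraries, 155 FPKM. The entry LOC102553223 took its FPKM sum from 14626 to 31740. For air replicate 3 of 9 months the same entry took the sum from 12795 to 38613. Air replicate 1 of 9 months had the lowest relative depth, 0.432. These libraries were kept. In lung tissue, fewer cells of a type and less RNA per cell cannot be told apart.

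Tpp1 was 1.22 to 1.32 times higher in silica lungs, the smallest and the most even of the 3 differences. At 1 month its FPKM were 17.8, 17.2, 16.7, 16.7 and 17.3 in silica rats, against 12.8, 12.8, 13.3, 13.2 and 16.4 in air rats. At 3 months they were 17.4, 17.9, 19.1, 19.1 and 17.4 in silica rats, against 13.5, 13.9, 12.9, 14.3 and 14.4 in air rats. At 6 months they were 20.7, 18.0, 17.5, 17.7 and 19.8 in silica rats, against 14.5, 15.3, 15.7, 15.5 and 15.4 in air rats. Silica and air rats did not overlap at these times, although at 1 month the highest air rat lay just under the lowest silica rat. The 9-month levels of Tpp1 were 17.7, 18.0, 20.5, 18.2 and 19.9 FPKM in silica rats, against 14.1, 14.6, 15.0 and 15.4 FPKM in air rats. The 12-month levels were 25.0, 20.9, 17.2, 23.9 and 20.9 FPKM in silica rats, against 15.7, 18.2, 15.6, 16.3 and 14.6 FPKM in air rats. The 18-month levels were 20.9, 18.6, 19.4, 21.9 and 20.3 FPKM in silica rats, against 14.4, 16.9, 17.2, 15.3 and 14.1 FPKM in air rats. Of these later times the groups overlapped at 12 months, where silica replicate 3 was below 1 air rat. Tpp1 was thus free of overlap at 5 of 6 times. Among all tested genes, silica libraries all lay above air libraries in 1.64% at 12 months and in 8.06% to 20.6% at the other times. The share of genes free of overlap at several times was not worked out.

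The mean level of Tpp1 at 1 month was 17.1 ± 0.473 FPKM in silica rats and 13.7 ± 1.52 FPKM in air rats (SD, n = 5 each). At 12 months it was 21.6 ± 3.07 FPKM in silica rats and 16.1 ± 1.36 FPKM in air rats (SD, n = 5 each), the highest Tpp1 mean within each treatment. The difference on the log2(FPKM + 0.5) scale was 0.32, 0.39, 0.28, 0.34, 0.40 and 0.37 from 1 to 18 months, with a standard error of 0.0684 at each time but 9 months, where it was 0.0725. In a limma fit of all 12 groups, with Benjamini-Hochberg adjustment across the 1278 genes, adjusted p lay between 2.84e-05 at 12 months and 0.00216 at 1 month. After quantile normalization the 6-month difference was 0.11 and did not pass (limma, adjusted p = 0.161), and the 3-month difference was 0.25 (limma, adjusted p = 0.00149). In the mean of the 6 times Tpp1 was higher by 0.35 ± 0.0282 (SE; limma, adjusted p = 3.1e-15), which is 1.27-fold.

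Prcp had the largest difference of the 3 at 3, 6, 9 and 18 months and reached 1.73-fold at 9 months. At 1 month Prcp stood at 11.9, 11.8, 12.3, 12.2 and 12.0 FPKM in silica rats, against 8.90, 9.03, 8.43, 9.27 and 8.12 FPKM in air rats. At 3 months it stood at 13.7, 13.8, 12.6, 12.7 and 12.0 FPKM in silica rats, against 8.54, 7.92, 7.98, 10.3 and 8.16 FPKM in air rats. At 6 months it stood at 12.9, 12.2, 13.5, 14.0 and 12.4 FPKM in silica rats, against 7.70, 7.33, 7.29, 7.65 and 8.34 FPKM in air rats. At these times every silica rat exceeded every air rat, and the silica rats of 1 month were the closest together of any Prcp group. The 9-month Prcp values were 10.6, 12.0, 13.2, 13.3 and 15.9 FPKM in silica rats, against 8.14, 7.87, 6.34 and 6.78 FPKM in air rats. The 12-month Prcp values were 16.3, 11.8, 6.55, 17.3 and 14.0 FPKM in silica rats, against 6.80, 8.20, 9.77, 6.95 and 9.08 FPKM in air rats. The 18-month Prcp values were 11.8, 9.63, 11.4, 13.0 and 12.7 FPKM in silica rats, against 7.65, 7.55, 7.92, 7.65 and 8.16 FPKM in air rats. The exception was 12 months, where silica replicate 3 was below all 5 air rats while the other 4 silica rats were above them, so Prcp too was free of overlap at 5 of 6 times.

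Average Prcp at 1 month was 12.0 ± 0.201 FPKM in silica rats and 8.75 ± 0.469 FPKM in air rats (SD, n = 5 each). At 12 months it was 13.2 ± 4.27 FPKM in silica rats and 8.16 ± 1.3 FPKM in air rats (SD, n = 5 each). The log2 difference was 0.44, 0.57, 0.73, 0.79, 0.60 and 0.55 from 1 to 18 months, with a standard error of 0.1239, and 0.1314 at 9 months. The adjusted p of limma ranged between 7.4e-06 at 9 months and 0.0164 at 1 month. With each library centred on its median gene the 1-month difference was 0.35 and no longer passed (limma, adjusted p = 0.0692). Over the 6 times the mean difference of Prcp was 0.61 ± 0.0511 (SE; limma, adjusted p = 8.15e-15), which is 1.53-fold.

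Anpep was the most abundant of the 3 per transcript length and the one whose level changed most with time in both treatments. At 1 month Anpep measured 29.2, 29.7, 24.4, 27.7 and 26.9 FPKM in silica rats, against 16.8, 17.0, 16.6, 18.6 and 24.2 FPKM in air rats. At 3 months it measured 36.7, 33.3, 37.8, 37.6 and 28.3 FPKM in silica rats, against 19.3, 21.5, 23.1, 24.3 and 29.1 FPKM in air rats. At 6 months it measured 44.4, 39.5, 43.3, 43.1 and 48.4 FPKM in silica rats, against 31.9, 30.3, 27.8, 26.0 and 30.6 FPKM in air rats. Silica and air met at 3 months, where silica replicate 5 was under the highest air rat, and were only just apart at 1 month. The 9-month Anpep levels were 45.1, 44.3, 54.5, 50.4 and 56.9 FPKM in silica rats, against 26.6, 27.5, 33.3 and 38.5 FPKM in air rats. The 12-month Anpep levels were 51.1, 45.4, 33.2, 54.8 and 53.8 FPKM in silica rats, against 25.5, 34.3, 31.3, 35.4 and 23.6 FPKM in air rats. The 18-month Anpep levels were 37.2, 36.5, 41.0, 43.1 and 39.1 FPKM in silica rats, against 28.1, 31.0, 29.3, 28.6 and 30.7 FPKM in air rats. Only silica replicate 3 of 12 months reached into the air values among these later groups, so Anpep was free of overlap at 4 of 6 times.

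Mean Anpep at 1 month was 27.6 ± 2.1 FPKM in silica rats and 18.6 ± 3.2 FPKM in air rats (SD, n = 5 each). At 12 months it was 47.7 ± 8.87 FPKM in silica rats and 30.0 ± 5.26 FPKM in air rats (SD, n = 5 each). Its log2 difference was 0.56, 0.56, 0.57, 0.67, 0.65 and 0.41 from 1 to 18 months, with a standard error of 0.1146, and 0.1216 at 9 months. Adjusted p by limma was lowest at 9 months, 2.63e-05, and highest at 18 months, 0.0111. Quantile normalization left a difference of 0.27 at 18 months, which did not pass (limma, adjusted p = 0.0871). The mean difference over the 6 times was 0.57 ± 0.0473 (SE; limma, adjusted p = 6.53e-15), which is 1.49-fold.

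**Figure D1:**
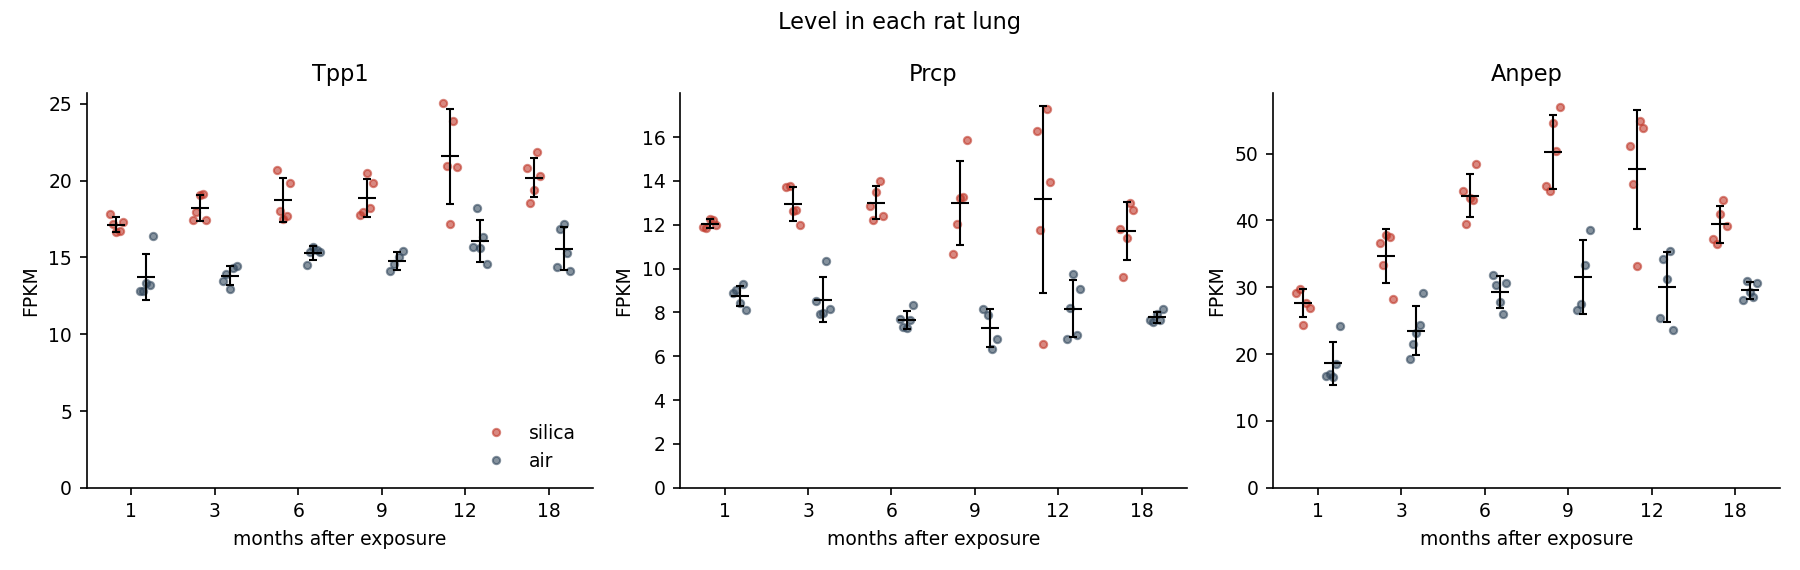
FPKM of Tpp1, Prcp and Anpep in each rat (points) by months after exposure, silica left of air, with group means and SD. Silica points lie above air points for Tpp1 and Prcp except at 12 months, where 1 silica rat has 17.2 FPKM of Tpp1 and 6.55 FPKM of Prcp; Anpep climbs in both treatments to 50.2 FPKM in silica rats and 31.5 FPKM in air rats at 9 months.

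All 3 genes were called higher in silica lungs at each of the 6 times, and all 18 differences stayed above 0 with median centring and with quantile normalization. Among all tested genes, 8.45% were called higher at 1 month, 15.9% at 3 months, 21.2% at 6 months, 19.5% at 9 months, 14.6% at 12 months and 11.8% at 18 months. These shares depended on scaling, and with median centring they were 2.97%, 8.76%, 16.0%, 17.3%, 13.2% and 8.76% in the same order. In the mean of the 6 times 37.5% were called higher, or 26.4% with median centring, and the 3 genes were among them. Ordered by the size of that mean rise, Prcp was number 43, Anpep number 52 and Tpp1 number 113 of 1278 genes. Tpp1 came first of the 3 when ordered by p, at number 27, as its values scattered least. The share of all tested genes whose silica libraries all exceeded the air libraries was 8.06%, 11.0%, 20.6%, 16.0%, 1.64% and 9.23% from 1 to 18 months. None of the 3 genes was in the small share at 12 months.

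In the fit of all 12 groups, all 3 genes were called at 12 months with or without silica replicate 3. The overlap of the 12-month groups and the fit of those groups alone depended on it. Without that library the log2 differences at 12 months were 0.48 ± 0.0649 for Tpp1, 0.82 ± 0.0931 for Prcp and 0.78 ± 0.1106 for Anpep (SE; limma, adjusted p = 5.3e-08, 7.64e-10 and 1.73e-07). When the 12-month groups were fitted alone with all 10 libraries, none of the 3 passed (limma, adjusted p = 0.102 for Tpp1, 0.156 for Prcp and 0.101 for Anpep), and 1 gene of 1278 was called in all. The same fit without replicate 3 called 294 genes, with adjusted p of 0.0037, 0.00342 and 0.00336 for Tpp1, Prcp and Anpep by limma. For Prcp this library lay 0.88 below its group mean on the log2 scale, for Anpep 0.49 and for Tpp1 0.31, the lowest deviation of any silica library for each gene.

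**Figure D2:**
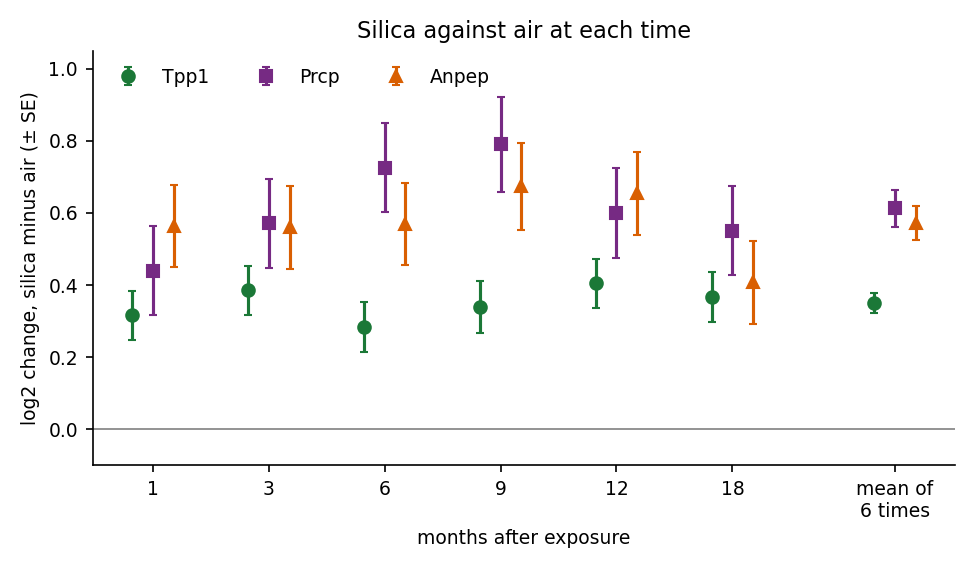
Silica minus air difference in log2(FPKM + 0.5) for each gene against months after exposure, with standard errors from limma. Tpp1 stays between 0.28 and 0.40, Prcp peaks at 0.79 at 9 months, and Anpep is lowest, 0.41, at 18 months.

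The silica difference of the 3 genes was not found to change with time. An F test of the difference across the 6 times gave adjusted p of 0.924 for Tpp1, 0.709 for Prcp and 0.835 for Anpep (limma), and 1.33% of tested genes passed it. The difference at 9 to 18 months exceeded that at 1 to 6 months by 0.04 ± 0.0564 for Tpp1, 0.07 ± 0.1022 for Prcp and 0.01 ± 0.0945 for Anpep (SE, log2), and none passed (limma, adjusted p = 0.78, 0.819 and 0.97), against 0.704% of tested genes. Between 18 months and 1 month the difference changed by 0.05 ± 0.0967 for Tpp1, 0.11 ± 0.1752 for Prcp and -0.16 ± 0.1621 for Anpep (SE, log2; limma, adjusted p = 0.886, 0.874 and 0.772), and 0.156% of tested genes passed. The change of Anpep between 18 months and 1 month, -0.16 ± 0.1621, was about as large as its standard error and was far from passing (limma, adjusted p = 0.772). Changes in the difference larger than these standard errors could therefore also have been missed. These tests do not exclude such changes.

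The level of Anpep itself differed between 1 and 18 months, though not as a steady rise. Its silica mean climbed to 50.2 FPKM at 9 months and fell to 39.4 FPKM at 18 months. Its air mean was 29.3 FPKM at 6 months and 29.55 FPKM at 18 months. In silica rats age and time since exposure cannot be told apart. In rats 18 months after silica Anpep was 0.51 ± 0.1146 higher than 1 month after silica, or 1.42-fold (SE, log2; limma, adjusted p = 0.00134). Tpp1 was 0.23 ± 0.0684 higher in that comparison (SE, log2; limma, adjusted p = 0.0173), and Prcp differed by -0.05 ± 0.1239 (SE, log2; limma, adjusted p = 0.838). These are 2 of 3 genes called higher, against 10.0% of tested genes, or 7.59% with median centring. The Tpp1 call ended with median centring, at 0.18 (limma, adjusted p = 0.0603), with quantile normalization, at 0.16 (limma, adjusted p = 0.053), and without silica replicate 4 of 18 months, at 0.20 (limma, adjusted p = 0.0627).

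In air rats Anpep at 18 months exceeded Anpep at 1 month by 0.66 ± 0.1146, or 1.58-fold (SE, log2; limma, adjusted p = 2.85e-05), number 25 of 1278 genes by size. Tpp1 differed by 0.18 ± 0.0684 (SE, log2; limma, adjusted p = 0.0528) and Prcp by -0.16 ± 0.1239 (SE, log2; limma, adjusted p = 0.392), and neither passed. For Tpp1 this lay close to the threshold, as 9 of 67 alternatives passed it, 7 of them with 1 library left out, such as silica replicate 3 of 12 months (limma, adjusted p = 0.0274). Anpep was thus the 1 gene of 3 called higher with age in air, against 17.4% of tested genes, or 9.55% with median centring. Both age comparisons also compare rats killed at different times, and the labels give no batch for the sequencing.

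In silica rats the highest group mean of Anpep was 1.82 times the lowest, and in air rats 1.69 times. For Tpp1 these ratios were 1.26 and 1.17, and for Prcp 1.12 and 1.2. For Tpp1 and Prcp all 6 silica means stood above all 6 air means. Prcp had a clear step in that order, from 8.75 FPKM in air rats of 1 month, its highest air mean, to 11.7 FPKM in silica rats of 18 months, its lowest silica mean, and these groups did not overlap. Anpep mixed the treatments, as its 1-month silica mean of 27.6 FPKM was below the air means from 6 months on, which were 29.3 to 31.5 FPKM. Apart from that step in Prcp, neighbouring groups in each gene's order of means overlapped.

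Within a library, the ratio of Prcp to Tpp1 and that of Anpep to Tpp1 were higher in silica rats. The log2 ratio of Prcp to Tpp1 averaged -0.59 in silica rats and -0.85 in air rats, a difference of 0.26 (2-sided permutation test within times, p = 1e-05, the smallest that 100000 resamples can give, and 1.5e-05 adjusted over 3 pairs). For Anpep to Tpp1 the averages were 1.04 in silica rats and 0.81 in air rats, a difference of 0.22 with the same p. For Prcp to Anpep no difference was detected, with a log2 ratio of -1.62 in silica rats and -1.67 in air rats and a difference of 0.04 (2-sided permutation test, p = 0.462), which ran between 0.02 and 0.06 with 1 library left out.

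Taken time by time, the Prcp to Tpp1 ratio differed most at 6 months, by 0.44, and at 9 months, by 0.45 (exact 2-sided permutation tests, p = 0.00794 each, the smallest this design allows at either time, and 0.0714 adjusted over 18 tests). Anpep to Tpp1 differed by 0.33 at 9 months and by 0.04 at 18 months (exact 2-sided permutation tests, p = 0.0159 and 0.556). After adjustment 0 of the 18 tests at single times passed with all libraries. With so few rats per time, 1 or 2 tests at the smallest p could not have passed by themselves. These tests therefore cannot decide whether the ratio differed at a single time. Without air replicate 4 of 3 months, air replicate 1 of 6 months or silica replicate 2 of 18 months, 3 of the 18 passed in each case (exact permutation tests, adjusted p = 0.0476), among them Prcp to Tpp1 at 6 and 9 months. The 9-month ratios of Prcp to Tpp1 averaged -0.53 in silica rats and -0.98 in air rats.

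**Figure D3:**
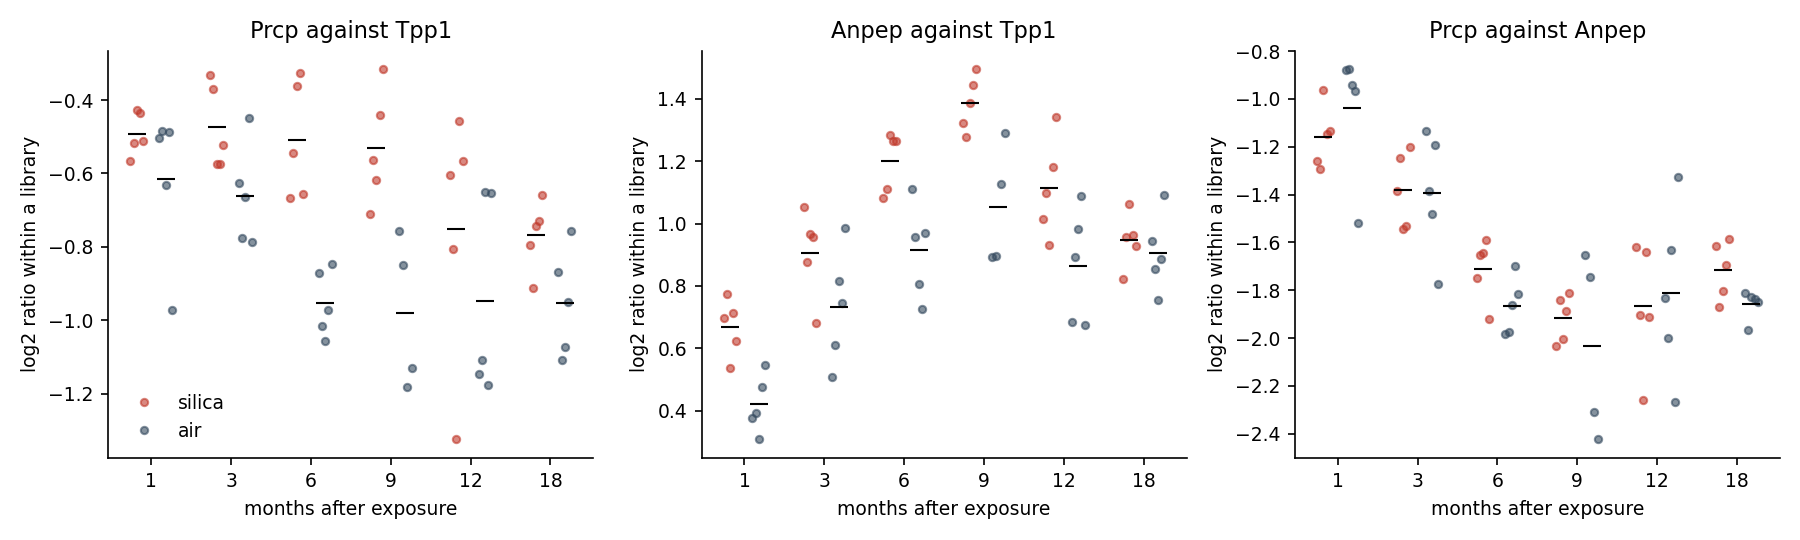
Log2 ratio between pairs of the 3 genes in each rat (points; black bars are group means) by months after exposure, silica left of air. The Prcp to Tpp1 ratio separates most at 6 and 9 months, where the group means differ by 0.44 and 0.45, while Prcp to Anpep differs by 0.04 over all times.

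Rats of the same group that were high in Anpep tended to be high in Tpp1. Deviations from the group mean correlated between Anpep and Tpp1 with Pearson's r = 0.675 and Spearman's rho = 0.613 over 59 libraries (permutation within groups, adjusted p = 6e-05 for both over 3 pairs). Without air replicate 5 of 1 month and silica replicate 3 of 12 months, the farthest from the median, r was 0.511. For Prcp with Tpp1 r was 0.426 but rho was 0.068 (permutation, adjusted p = 0.0688 for r and 0.653 for rho), and for Prcp with Anpep r was 0.371 and rho 0.151 (permutation, adjusted p = 0.0688 for r and 0.526 for rho). Leaving out silica replicate 3 of 12 months alone brought these to r = 0.138 for Prcp with Tpp1 and r = 0.091 for Prcp with Anpep, and Anpep with Tpp1 to r = 0.591. All 3 genes were read from the same libraries, so scaling and depth are shared between them.

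**Figure D4:**
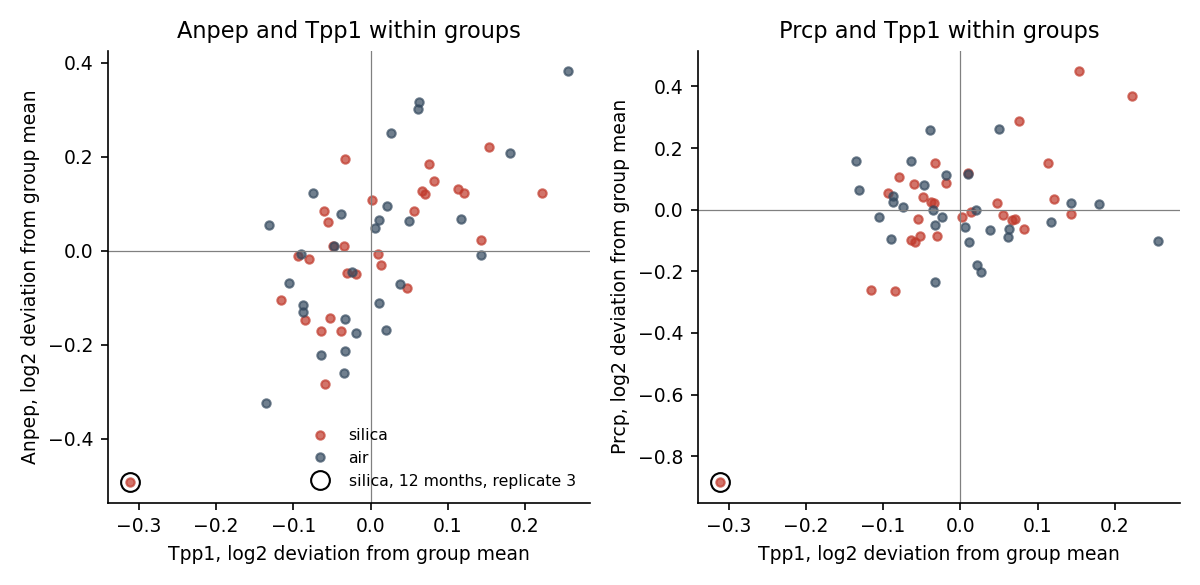
Deviation of each library from its group mean, in log2(FPKM + 0.5), for pairs of the 3 genes, with silica replicate 3 of 12 months circled. The Anpep and Tpp1 deviations run together over the whole cloud (r = 0.675), whereas those of Prcp are drawn out by the circled library, at -0.88 for Prcp.

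The genes whose levels over all 59 libraries were most like each of the 3 were found among 991 tested genes with a gene symbol. Nearly all named entries were on chromosome 1, so genes elsewhere that may be more alike were not compared. These r include the difference between silica and air, and the libraries share depth and treatment, so they carry no p. For Tpp1 the highest r were 0.905 with Cited2, a transcriptional co-regulator, 0.893 with Srd5a1, a steroid reductase, and 0.891 with Pld3, a nuclease of the lysosome. For Prcp they were 0.923 with Igf2r, the receptor that carries mannose 6-phosphate enzymes to the lysosome, 0.921 with Lpcat1, which makes surfactant phospholipid in type 2 cells, and 0.92 with the nucleotide receptor P2ry2. For Anpep they were 0.949 with the scaffold protein Iqgap1, 0.905 with Cited2 and 0.9 with the glycolytic enzyme Aldoa. Anpep was number 12 for Tpp1, with r = 0.848, and Prcp number 78, with r = 0.73.

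With the group means taken out, Pld3 was first for Tpp1 (r = 0.722), followed by the complement receptor C5ar1 (r = 0.677). Dgat2, an enzyme of triglyceride synthesis, was first for Prcp (r = 0.821), followed by Pld3 (r = 0.809) and by Napsa (r = 0.8), the aspartic peptidase of type 2 cells that trims surfactant proteins. Anpep was again closest to Iqgap1 (r = 0.759), then to C5ar1 (r = 0.748), a receptor of myeloid cells. The r within groups were lower without silica replicate 3 of 12 months, most of all for Prcp, with r = 0.597 for Dgat2, 0.635 for Pld3 and 0.557 for Napsa, which was then number 7. For Tpp1 they were then 0.619 with Pld3 and 0.561 with C5ar1, and for Anpep 0.7 with Iqgap1 and 0.675 with C5ar1. The first places changed as well without that library. Ucp2 was then first for Tpp1 (r = 0.629) and Pld3 number 2. For Prcp Pld3 was first and Dgat2 number 4, and for Anpep Iqgap1 was number 2.

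Most, but not all, of the other lysosomal genes that the table held were called higher in silica lungs in the mean of the 6 times. The gene lists used here and below were written with earlier results of these data known, so counts from them describe and do not test. Of 20 listed lysosomal peptidases the table held 4, and all were called higher in the mean of the 6 times (limma, 37.5% of all tested genes), with a median log2 difference of 0.48 beside 0.03 for all tested genes. Prcp and Tpp1 were themselves 2 of the 4, so this count and median are no separate evidence about them. The others were Napsa, at 0.64 ± 0.0466, and Ctsc, the dipeptidyl peptidase that activates granule serine proteases, at 0.20 ± 0.0307 (SE, log2). Napsa had a median of 132 FPKM in silica rats and 84.9 FPKM in air rats, and was called at all 6 times, whereas Ctsc was called at 3. Of 48 other lysosomal hydrolases and helpers 3 were present, of which 2 were called higher, with a list median of 0.26. These were the ribonuclease Rnaset2, at 0.83 ± 0.0804, and the fucosidase Fuca2, at 0.26 ± 0.0445, while the sphingomyelinase Smpd1 differed by 0.05 ± 0.0258 (SE, log2; limma, adjusted p = 0.126). Of 62 genes of the lysosomal membrane and of lysosome formation 5 were present and 5 were called higher, with a median of 0.31. Cln3, a membrane protein whose loss also causes a ceroid lipofuscinosis, was at 0.33 ± 0.0378, Lamtor1, an anchor of nutrient signalling on the lysosome, at 0.32 ± 0.0372, and Igf2r at 0.31 ± 0.0281 (SE, log2).

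Among 49 listed aminopeptidases, surface peptidases, peptide-trimming enzymes and members of their families the table held 5. Of these 4 were tested and 3 called higher, against 37.5% of all tested genes, with a median of 0.45. Anpep was itself among the 3, so this count and median are no separate evidence about it. The others were Cpxm2, a member of the carboxypeptidase X family, at 0.58 ± 0.0518, and Pepd, a cytosolic dipeptidase for bonds to proline, at 0.34 ± 0.0443 (SE, log2). Lnpep, the insulin-regulated aminopeptidase that binds angiotensin IV, differed by 0.02 ± 0.0195 (SE, log2; limma, adjusted p = 0.5). Folh1 was under the minimum for testing. Of 30 genes acting on angiotensin and kinin peptides 5 were present and 3 tested, which were Prcp, Anpep and Lnpep. The 2 called higher, beside 37.5% of all tested genes, were Prcp and Anpep themselves, and the median of 0.57 was the value of Anpep. Lnpep, the only tested gene of this list outside the genes of this report, was not called. Mas1 and Klk1 were under the minimum. With age in air rats Cpxm2 was higher at 18 months by 0.48 (limma, adjusted p = 0.00394), as Anpep was, and Lnpep fell by 0.14 (limma, adjusted p = 0.0216) and Ctsc fell by 0.24 (limma, adjusted p = 0.0152).

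**Figure D5:**
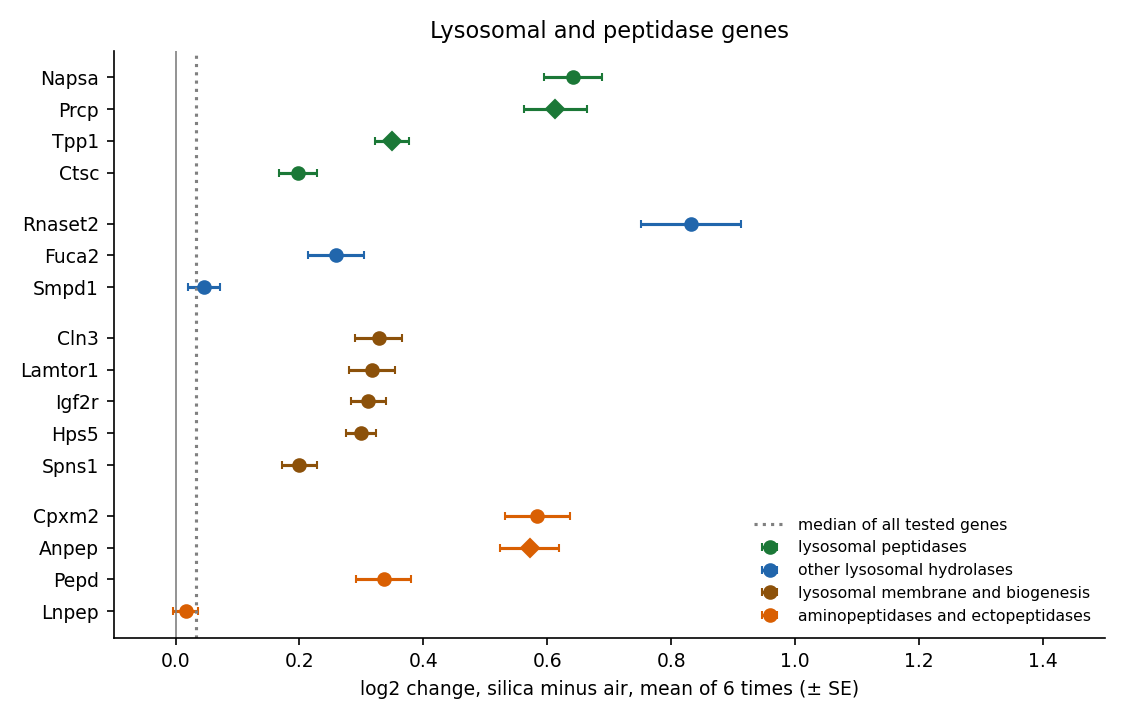
Silica minus air difference in log2(FPKM + 0.5), mean of the 6 times with standard errors from limma, for Tpp1, Prcp, Anpep and the tested genes of the lysosomal and peptidase lists. Rnaset2 has the highest value, 0.83, and Lnpep, at 0.02, and Smpd1, at 0.05, did not pass.

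In the mean of the 6 times, the genes present of the macrophage and monocyte, neutrophil and type 2 lists were higher in silica lungs. The endothelial and fibroblast genes present and 2 of 3 red cell genes were lower. The marker lists were written with earlier results of these data known, so counts from them describe and do not test. Of 26 listed macrophage and monocyte markers 8 were present: Itgax, Itgam, Lilrb4, Tyrobp, Cd33, Siglec5, Siglec8 and C5ar1. All 8 were called higher in the mean of the 6 times (limma), against 37.5% of all tested genes, with a median log2 difference of 0.74. Their summed level ran between 85.5 and 230 FPKM in silica libraries and between 84.2 and 133 FPKM in air libraries. Cd68, Marco and Mrc1 were listed but absent from the table, so this sum cannot set macrophages apart from other myeloid cells. Cd177, the 1 neutrophil marker present of 12 listed, ran between 12.7 and 50.4 FPKM in silica libraries and between 3.57 and 16.5 FPKM in air libraries. The 3 alveolar type 2 markers present of 12 listed, Napsa, Lpcat1 and Cebpa, summed to between 138 and 318 FPKM in silica libraries and between 130 and 166 FPKM in air libraries. The endothelial sum of Ehd2, Rasip1 and Lyve1, of 19 listed, ran between 69.7 and 115 FPKM in silica libraries and between 93.1 and 125 FPKM in air libraries, and these 3 genes were called lower in the mean of the 6 times (limma), against 20.1% of all tested genes, though 0 of the 3 were at 1, 3 or 18 months. The 2 fibroblast and smooth muscle markers present of 13 listed, Tcf21 and Ltbp4, were called lower in that mean as well, with a median log2 difference of -0.28. At single times 2 were called lower at 9 months, 1 at 12 months and 0 at 1, 3, 6 or 18 months. In the mean of the 6 times 2 of 3 erythrocyte genes were called lower, with a median of -0.41. So was 1 of 4 tested heart and muscle genes, with a median of -0.27. Of 3 B cell markers 0 were called, with a median of -0.12. None of the markers present in these lists was at 0 in all libraries. The 5 genes most like each over all libraries held 1 gene of the type 2 list: Cebpa for Tpp1 (r = 0.859), Lpcat1 for Prcp (r = 0.921) and Napsa for Anpep (r = 0.883). The other genes of each 5 were on none of these marker lists, among them Plaur for Tpp1 (r = 0.859), Mki67 for Prcp (r = 0.913) and Aldoa for Anpep (r = 0.9). A place on a list, or none, does not settle which lung cells express a gene. Without silica replicate 3 of 12 months Cebpa was number 10 for Tpp1. Within groups, with all libraries kept, the 5 included C5ar1, listed here as a macrophage marker, for Tpp1 and Anpep. For Prcp they included the type 2 marker Napsa. The rest were again on none of these lists. The part of these cells in the rise of Tpp1, Prcp and Anpep was not tested.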

How the data were processed

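Total RNA of a piece of lung was isolated with miRNeasy kits and DNase, and libraries were made with the stranded TruSeq total RNA kit after Ribo-Zero Gold depletion, per the labels' protocols. The submitters' processing notes name TopHat2 2.0.9, Cufflinks 2.1.1, Bowtie2 2.2.9, Trimmomatic 0.35 and bcl2fastq 2.19, with no order or role. How strand was used, the build and the annotation are not given in the sources used here. Values deposited by the authors are FPKM in 1 column per library, and all 59 columns were matched to a sample by name. The table held 2888 entries, and the last, with 31 of 59 values, was left out. Of 2061 entries with a RefSeq name, 2046 (99.3%) were on chromosome 1, so other genes were not analysed here.

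FPKM are not counts, so limma 3.58.1 in R 4.3.3 was run on log2(FPKM + 0.5) with an intensity trend, for entries at or above 1 FPKM in 4 or more libraries. The 12 groups of rats entered one fit (47 residual degrees of freedom), with Benjamini-Hochberg adjustment over 1278 genes and a threshold of 0.05. Fold changes are on the log2(FPKM + 0.5) scale. Ratios between genes were compared by permutation of libraries within times. Each time had its own air rats. Relative depth came from 1997 low values of 261 entries, of which 63.7% lay within log2 0.1 of one step, so whole reads were not recovered and no counting error can be given. No libraries were identical (0 pairs). Tested on simulated data of 1278 genes at 6 months, the fit recovered 85% of 100 genes changed by a log2 of 0.5 and 95% of 100 changed by 1, and 6.2% of its calls were false.

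The 3 genes and the gene lists were chosen with earlier results of these data known. Genes are named as follows: the 3 genes, the tested lysosomal peptidases and aminopeptidases, up to 4 genes of other lists with the smallest p, and up to 5 genes per likeness. Alternatives were other pseudocounts and filters, median centring, quantile normalization, no trend, library weights, fits of single times and leaving out each library.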

Additional observations from a re-analysis of the deposited data

Results flagged for a closer look

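In 3 of the 36 groups of values (3 genes in 12 groups), 1 rat lay farther from the others of its group than Dixon's 95% limit allows. Chance gives this in about 1 in 20 groups. Tpp1 was highest in air replicate 5 of 1 month, at 16.4 FPKM, where the other 4 air rats had 12.8 to 13.3 FPKM. Anpep was highest in the same rat, at 24.2 FPKM, where the others had 16.6 to 18.6 FPKM. Prcp was highest in air replicate 4 of 3 months, at 10.3 FPKM, where the others had 7.92 to 8.54 FPKM. Air replicate 5 of 1 month had a summed macrophage marker level of 92.3 FPKM and air replicate 4 of 3 months one of 103 FPKM, inside the air range of 84.2 to 133 FPKM, and their relative depths were 0.788 and 0.748. Silica replicate 3 of 12 months did not pass this limit for Tpp1, Prcp or Anpep, because the silica rats of 12 months were spread widely.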

How the results depend on the processing

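No result of Tpp1, Prcp or Anpep reversed its direction past the threshold under any alternative run. Median centring ended the calls of Prcp at 1 month (0.35) and of Tpp1 between silica rats of 18 months and 1 month (0.18). Quantile normalization ended those of Tpp1 at 6 months (0.11), Anpep at 18 months (0.27) and Tpp1 between silica rats of 18 months and 1 month (0.16). Fitting the 12-month groups alone ended all 3 calls, with the same differences (0.40 for Tpp1, 0.60 for Prcp and 0.65 for Anpep). Leaving out silica replicate 3 there, an alternative chosen after seeing the data, restored them. The rise of Tpp1 in air rats of 18 months over 1 month passed with a mean FPKM of at least 5 (0.18) and with library weights (0.22), and ran between 0.14 and 0.24 with 1 library left out, passing in 7 of 59 such fits. That in silica rats ran between 0.20 and 0.26. With 1 library left out, single-time ratio differences ran between 0.15 and 0.24 (Prcp to Tpp1, 3 months), 0.40 and 0.48 (6 months), 0.38 and 0.52 (9 months), 0.24 and 0.34 (Anpep to Tpp1, 6 months) and 0.11 and 0.18 (Prcp to Anpep, 18 months). In 3 of these fits differences then passed, 3 in each and 9 in all. Where the rat left out was of 3 or 18 months, the Prcp to Tpp1 differences at 6 and 9 months passed through the adjustment alone. The cause was not tested for the other changes in this paragraph.

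Counts of called genes over the whole table moved more. With no filter 1 gene was called for 9 to 18 against 1 to 6 months and 1 for 18 against 1 month (9 and 2 as reported). A mean FPKM of at least 5 left fewer genes to test. Then 237 were called at 9 months, 110 at 18 months and 381 in the mean of the times (393, 196 and 736 as reported). For the silica difference at 18 against 1 month 0 were called (2 as reported). Between 1 and 18 months 151 were called in air rats and 86 in silica rats (279 and 182 as reported). Median centring called 65 at 1 month and 5 for late against early times, and quantile normalization called 2 for late against early times. Library weights called 198 at 1 month, 536 at 6 months, 70 for late against early times, 10 for 18 against 1 month and 153 in the F test (113, 353, 9, 2 and 17 as reported). Single-time fits called 1 at 12 months and 130 at 18 months. With 1 library left out the counts ran between 44 and 136 at 1 month, 195 and 457 at 12 months, 112 and 231 at 18 months, 1 and 4 for 18 against 1 month, 3 and 38 for late against early times and 10 and 78 in the F test. In the mean of the times 65.1% of called genes were higher, 44.1% after median centring and 41.1% after quantile normalization, and at 1 month 95.6%, 58.5% and 61.0%, while the median of all genes moved by less than 0.1. No paired analysis was possible because replicate numbers follow the order of deposit and pair no rats.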
